A study of Bos taurus with 2 samples.

Results

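The genes described here encode 7 proteins that embryonic endoderm and fetal liver secrete into plasma or yolk: AFP, TTR, RBP4, APOA1, APOA2, APOB and APOE. They were chosen by symbol with earlier results of these data known, and all 7 of 7 were found among the 35643 genes of both libraries. In a mammalian embryo the hypoblast forms beneath the epiblast and gives rise to visceral and parietal endoderm. Visceral endoderm takes up maternal nutrients and, before a liver exists, secretes carriers of lipid, retinol and hormones. Transcription of most of these genes in endoderm and liver depends on factors such as HNF4A, GATA4 and GATA6.

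The blastoid sample (labelled 3L_Blastoid) was an aggregate of 3 wild-type bovine stem cell types, seeded at 8 bEPSC, 8 bXEN and 16 bTSC in each microwell. These are expanded potential, extraembryonic endoderm and trophoblast stem cells, and feeder fibroblasts were depleted before seeding. The other sample was wild-type bovine blastocysts of day 8. Nuclei were isolated from frozen material and counted by unique molecular identifiers (UMIs), each of which marks 1 captured RNA molecule. There was 1 library per group, with the number of blastoids or embryos in it not given in the sources used here, so no p-value could be computed. All intervals below are exact 95% intervals and cover counting error only.

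The blastoid library kept 1914 of 1957 barcodes and the blastocyst library 827 of 944, with 7481886 and 6861558 UMIs. Their depths differed. In the blastoid 1628 barcodes had under 4000 UMIs (median 1922; here called shallow) and 286 had at least 4000 (median 13070; deep). The blastocyst had 139 shallow and 688 deep barcodes, with medians of 1721 and 8591.5 UMIs. Ribosomal protein genes gave a median of 15.8% of the UMIs in shallow blastoid barcodes and 2.81% in deep ones. Deep barcodes were sorted by UMIs of genes outside the carrier set: trophectoderm-gated on GATA2, GATA3 and TFAP2A, hypoblast-gated on GATA4, HNF4A, PDGFRA and SOX17, and epiblast-gated on NANOG and PRDM14. These gates held 146, 9 and 0 blastoid barcodes and 203, 344 and 48 blastocyst barcodes, which left 131 and 93 ungated. The libraries shared 1 barcode sequence before filtering and 0 after it.

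In the blastoid library all 7 carriers were present, whereas the blastocyst library held mainly APOA1 and APOE. AFP, the fetal counterpart of albumin, had 999 UMIs in 672 of the 1914 blastoid barcodes and 0 UMIs in the 827 blastocyst barcodes. A count of 0 allows a blastocyst level of up to 0.437 counts per 1000000 UMIs (CPM), set by 3 counts, and a share of up to 0.363% of barcodes with a UMI. AFP was therefore at least 305-fold higher in the blastoid. TTR, which carries thyroxine and binds RBP4, had 216 UMIs in 178 blastoid barcodes against 0, 66.0-fold higher in that way (lower limit 53.2). APOB, the structural protein of large lipoproteins, had 134 UMIs in 92 blastoid barcodes against 0, 41.0-fold higher (lower limit 32.9). These 3 genes were also at 0 in the 117 blastocyst barcodes that filtering removed.

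RBP4, the plasma carrier of retinol, had 1851 blastoid and 13 blastocyst UMIs, a CPM ratio of 131 (76.2 to 246). Of those 13, 10 lay in 1 blastocyst barcode of 2113 UMIs that had no UMI of AFP, TTR or HNF4A. APOA2, a second protein of high-density lipoprotein, had 187 UMIs against 2, a ratio of 85.7 (23.4 to 713). The blastocyst held RBP4 in 4 barcodes and APOA2 in 2. APOE, a ligand of receptors of the LDL receptor family, had 1781 UMIs against 78, a ratio of 20.9 (16.7 to 26.6). APOA1, the main protein of high-density lipoprotein, had 4778 UMIs in 1669 blastoid barcodes and 1307 UMIs in 554 blastocyst barcodes. Its levels were 639 CPM (621 to 657) and 190.5 CPM (180.3 to 201), a ratio of 3.35 (3.15 to 3.57).

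A gene was counted as higher or lower when its ratio reached 2-fold with counts under 3 set to 3, among genes with at least 10 UMIs in the pair of sums. By that rule 7 of 7 carriers were higher in the blastoid, against 24.2% of 19221 genes, while 20.7% of those genes and none of the carriers were lower. The carriers were chosen with earlier results of these data known, so such counts describe them and test nothing. The median log2 ratio was 5.84 over the carriers and -0.08 over all genes. Among deep barcodes alone 6 of 7 carriers were higher, against 21.9% of 18414 genes, and none was lower, against 15.2%. APOA1 was the exception: its deep levels were 185 CPM (172 to 198) in the blastoid and 176 CPM (166 to 186) in the blastocyst, a ratio of 1.05 (0.961 to 1.15). Among deep barcodes APOE was 8.04-fold higher (6.17 to 10.6), and AFP 90.2-fold with its 0 set to 3 (lower limit 72.6). Between shallow barcodes of the libraries 7 of 7 carriers were higher, against 11.9% of 13520 genes, and between trophectoderm-gated nuclei 5 of the 6 with at least 10 UMIs, against 22.0% of 15186. UMI counts are not scaled by gene length, so no order of level among the 7 genes is given. In these libraries a smaller number of expressing cells and less RNA in each cannot be told apart.

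**Figure D1:**
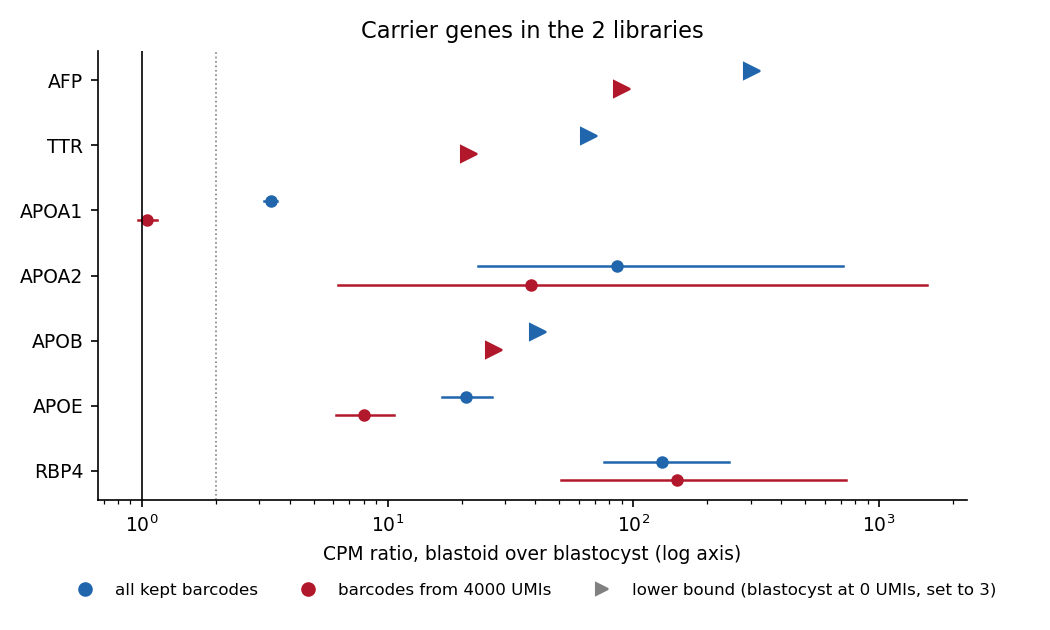
CPM ratio of each carrier gene, blastoid over blastocyst, on a log axis, for all kept barcodes (blue) and for barcodes from 4000 UMIs (red). Points carry exact 95% intervals for counting error, and the dotted line marks 2-fold. Arrowheads are ratios with a blastocyst count of 0 set to 3, without counting error in the blastoid count. APOA1 is the gene whose ratio falls from 3.35 to 1.05 among deep barcodes.

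The 2 depth classes of the blastoid library differed in the CPM of every carrier. AFP was at 258 CPM (241 to 277) in shallow barcodes and 41.2 CPM (35.3 to 47.7) in deep ones. TTR was at 54.7 CPM (46.9 to 63.5) against 9.77 CPM (7.04 to 13.2). Both members of the TTR and RBP4 pair, which circulate as a complex, were thus lower as CPM in deep barcodes, with RBP4 at 489 CPM (465 to 514) against 68.6 CPM (61.0 to 76.9). The proteins of high-density lipoprotein showed the same direction. APOA1 was at 1252 CPM (1213 to 1291) against 185 CPM (172 to 198). APOA2 was at 50.9 CPM (43.4 to 59.4) against 5.81 CPM (3.76 to 8.58). APOE was at 449 CPM (426 to 473) against 81.9 CPM (73.5 to 90.9).

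APOB had the smallest difference between the depth classes, 25.5 CPM (20.2 to 31.6) against 12.3 CPM (9.23 to 16.1), a ratio of 2.07 (1.44 to 2.98). A single deep nucleus held 30 of the 53 deep APOB UMIs, and without it the ratio was 4.75. The other ratios of shallow to deep CPM were 6.28 for AFP, 5.60 for TTR, 6.76 for APOA1, 8.76 for APOA2, 5.49 for APOE and 7.13 for RBP4. So 7 of 7 carriers were at least 2-fold higher in shallow barcodes, against 18.4% of 16735 genes, while 44.4% of those genes were at least 2-fold lower. The median log2 ratio of shallow to deep was 2.65 over the carriers and -0.77 over all genes. The share of ribosomal protein UMIs moved the same way, and its part in these levels was not tested.

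Counted per barcode instead of as CPM, most of the difference between depth classes was absent. Shallow barcodes held 0.505 AFP UMIs each (0.471 to 0.541) and trophectoderm-gated nuclei 0.507 (0.398 to 0.636). At the shallow rate, 146 barcodes would hold 73.7 AFP UMIs, and the trophectoderm-gated nuclei held 74. Total UMIs per barcode differed 9.13-fold between the same groups, with means of 1954 and 17839.

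The other carriers were also close per barcode. APOA1 was at 2.45 UMIs per shallow barcode (2.37 to 2.52) and 2.64 per trophectoderm-gated nucleus (2.39 to 2.92). TTR was at 0.107 (0.0916 to 0.124) and 0.130 (0.0784 to 0.203), and RBP4 at 0.956 (0.909 to 1.00) and 0.856 (0.713 to 1.02). The ratios of trophectoderm-gated to shallow UMIs per barcode ran from 0.826 for APOA2 and APOB to 1.22 for TTR. All 7 intervals of these ratios included 1. Within 1.5-fold, a limit chosen after the values were seen, lay 7 of 7 carriers and 3.24% of 15448 genes. The median ratio over all genes was 13.7.

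The ungated deep nuclei gave nearly the same numbers per barcode for AFP, TTR, APOA1 and APOA2. The intervals of their ratios to the shallow rate included 1. AFP was at 0.550 UMIs per barcode (0.430 to 0.692), TTR at 0.115 (0.0641 to 0.189), APOA1 at 2.60 (2.33 to 2.90) and APOA2 at 0.0840 (0.0419 to 0.150). RBP4 was 1.26-fold above the shallow rate (1.06 to 1.49). APOE was 1.54-fold above it (1.31 to 1.80), and 1.36-fold (1.14 to 1.60) without 1 nucleus of 28139 UMIs that held 22 of the 177 APOE UMIs. APOB was 2.45-fold above it (1.34 to 4.23) on 16 UMIs. Within 1.5-fold of the shallow rate lay 5 of 7 carriers and 6.94% of 15049 genes, and all these comparisons share the shallow barcodes. Ribosomal protein genes, whose RNA is mainly cytoplasmic, gave 305 UMIs per barcode in shallow, 412 in trophectoderm-gated and 344 in ungated barcodes. Mitochondrial genes gave 39.6, 73.4 and 72.1, a wider difference.

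**Figure D2:**
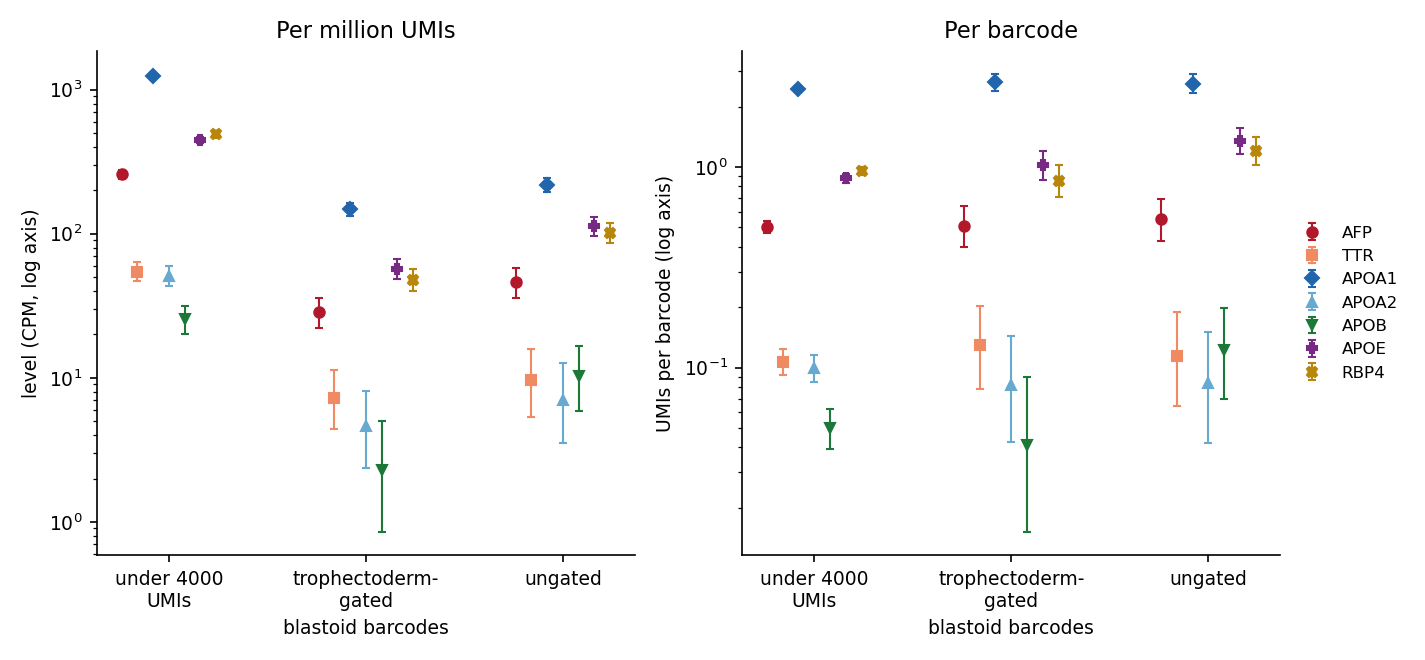
Level of each carrier gene in 3 groups of blastoid barcodes, as CPM (left) and as UMIs per barcode (right), both on log axes, with exact 95% Poisson intervals for counting error. On the left every gene is lower in both deep groups; on the right AFP stays at 0.505, 0.507 and 0.550 UMIs per barcode and APOA1 at 2.45, 2.64 and 2.60.

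Within the trophectoderm gate APOA1 differed little with depth, and AFP differed more. APOA1 was at 2.48 UMIs per barcode (1.90 to 3.18) in 25 nuclei of under 10000 UMIs and at 2.80 (2.32 to 3.37) in 41 nuclei of at least 20000. AFP was at 0.240 (0.0881 to 0.522), 0.600 (0.442 to 0.796) and 0.488 (0.298 to 0.753) in nuclei of under 10000, from 10000 to 20000, and above 20000 UMIs. The first AFP value rested on 6 UMIs; it and the second lay outside each other's interval, although the intervals overlapped. In ungated nuclei APOE was at 0.887 (0.668 to 1.15), 1.56 (1.25 to 1.93) and 2.57 UMIs per barcode over the same ranges. The intervals of the first and second ranges did not overlap. The last value fell to 1.08 (0.589 to 1.81) without the APOE-rich nucleus, with intervals that overlapped those of the other ranges. AFP in ungated nuclei was at 0.419 (0.274 to 0.614), 0.582 (0.398 to 0.821) and 1.00 (0.547 to 1.68), and RBP4 at 1.05, 1.33 and 1.43. The last range held 14 nuclei, and its values for AFP and RBP4 were the highest of the ranges, with overlapping intervals. Among shallow barcodes the number of AFP UMIs did depend on depth: it was at 0.231 per barcode between 1000 and 1500 UMIs, 0.397 between 1500 and 2000, and 0.690 between 2000 and 4000. APOA1 was at 1.86, 2.52 and 2.50 in the same ranges.

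The mixture of carriers was similar in shallow and trophectoderm-gated barcodes and differed somewhat in ungated ones. Of all carrier UMIs, AFP made up 10.0% (9.38% to 10.7%) in shallow barcodes, 9.60% (7.61% to 11.9%) in trophectoderm-gated and 9.11% in ungated nuclei. APOA1 made up 48.5%, 50.1% and 43.2%, and RBP4 19.0%, 16.2% and 20.0%. APOE made up 17.4% (16.6% to 18.3%), 19.3% and 22.4% (19.5% to 25.5%) of them. The interval of the ungated share of APOA1 (39.7% to 46.7%) lay below that of the shallow share (47.4% to 49.6%), and that of APOE above it, so the ungated mixture was not identical. The 9 hypoblast-gated nuclei differed more, with 17.3% AFP (12.1% to 23.7%) and 17.3% APOB against 0.987% APOB in shallow barcodes. Of their 31 AFP and 31 APOB UMIs, 26 and 30 lay in 1 nucleus. What part of the UMIs in any of these groups was free RNA, captured from solution with a nucleus, was not tested.

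Shares of barcodes with a UMI depend on depth and were read beside trophectoderm-gated nuclei, which are not known as a source of AFP. An AFP UMI was found in 34.4% of shallow barcodes (32.1% to 36.8%; median 1922 UMIs) and in 39.0% of trophectoderm-gated nuclei (31.1% to 47.5%; median 15783 UMIs). Neither share was read as a count of AFP-expressing cells. The 2 groups differed in depth, and the part of free RNA was not tested. APOA1 was found in 86.8% and 91.8% of the same groups. With each barcode thinned at random to 1000 UMIs, the AFP shares were 20.9% (18.9% to 22.9%) and 4.11% (1.52% to 8.73%), in the order of the CPM. Thinning left out 4 shallow barcodes and none of the trophectoderm-gated ones.

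Carriers were not found together in shallow barcodes more often than their separate shares gave. After thinning to 1000 UMIs, AFP and APOA1 were both present in 246 barcodes, where the product of their shares gave 230.9, a ratio of 1.07 (0.937 to 1.21). The circulating partners TTR and RBP4 shared 35 barcodes against a product of 30.3 (ratio 1.16, 0.805 to 1.61). AFP and TTR shared 17 against 17.1, and the lipoprotein pair APOA1 and APOA2 shared 53 against 49.7. Over the 17 pairs with a product of at least 10, the ratio ran from 0.787 to 1.21 with a median of 0.993, and 17 of 17 intervals included 1. Without thinning it ran from 0.876 to 1.27 over 19 pairs. Pairs of 7 genes in 1 set of barcodes are not independent of each other.

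**Figure D3:**
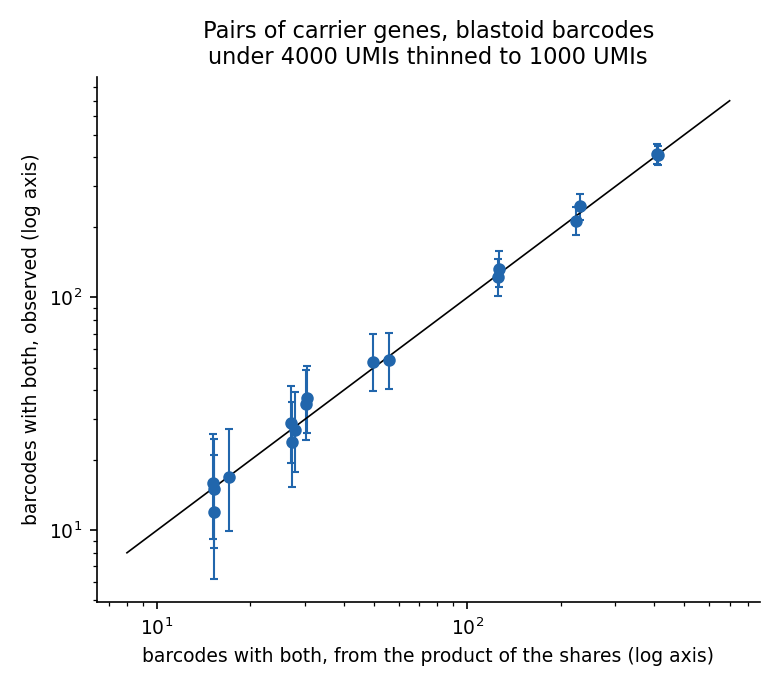
Blastoid barcodes under 4000 UMIs that held both genes of a pair after thinning to 1000 UMIs (vertical) against the number given by the product of the 2 shares (horizontal), on log axes, for the 17 pairs with a product of at least 10. Bars are exact 95% Poisson intervals and the line marks equality; all 17 intervals include the line.

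The number of different carriers per barcode had the same median, 3, in shallow and in deep blastoid barcodes. Of the 1628 shallow barcodes 21 held none and 2 held all 7. In the blastocyst the median was 1, and no barcode held more than 2 of the carriers.

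AFP stood apart in how unevenly it was spread. In shallow barcodes thinned to 1000 UMIs, its variance over mean was 1.71, at the 99.5th percentile of 2658 genes with at least 100 UMIs, whose median was 1.08 and 95th percentile 1.21. APOA1 was at 1.27 (98.1st percentile), whereas APOE at 1.05 and RBP4 at 1.13 lay inside the range of most genes. Without the 10 blastoid barcodes that held most AFP UMIs, the value for AFP was 1.00, and that for APOA1 1.21. Leaving out the barcodes with most AFP lowers its value by construction, and other genes were not treated in that way. Of the 672 barcodes with AFP, 6 held more than 5 of its UMIs and 483 held 1.

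The barcode with most AFP had 32 of its UMIs among 2346 in all, with 19 of APOA1, 3 of APOB and 2 of TTR. It also held 13 UMIs of AHSG (fetuin A), 8 of FETUB, 7 of TF (transferrin, the iron carrier) and 6 of SERPINA1 (a plasma protease inhibitor), and 13.0% ribosomal protein UMIs. The second was a hypoblast-gated nucleus of 12341 UMIs with 26 AFP UMIs. It held 30 of APOB, which is 30 of the 134 APOB UMIs of the library, 25 of APOA1, 7 of TTR and 7 of RBP4. This nucleus also had 55 UMIs of AHSG, 35 of TF, 27 of FETUB, 3 of GATA4 and 2 of GATA6, and 0 of HNF4A. The third, of 1501 UMIs, had 18 of AFP and 12 of APOA1, with 0 of APOB and TTR. High AFP and high levels of other plasma carriers were thus seen in the same 3 barcodes, which were picked for their AFP. The fourth, of 2703 UMIs, had 10 of AFP, 4 of AHSG and 1 of APOA1, with 0 of TTR, RBP4 and TF.

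**Figure D4:**
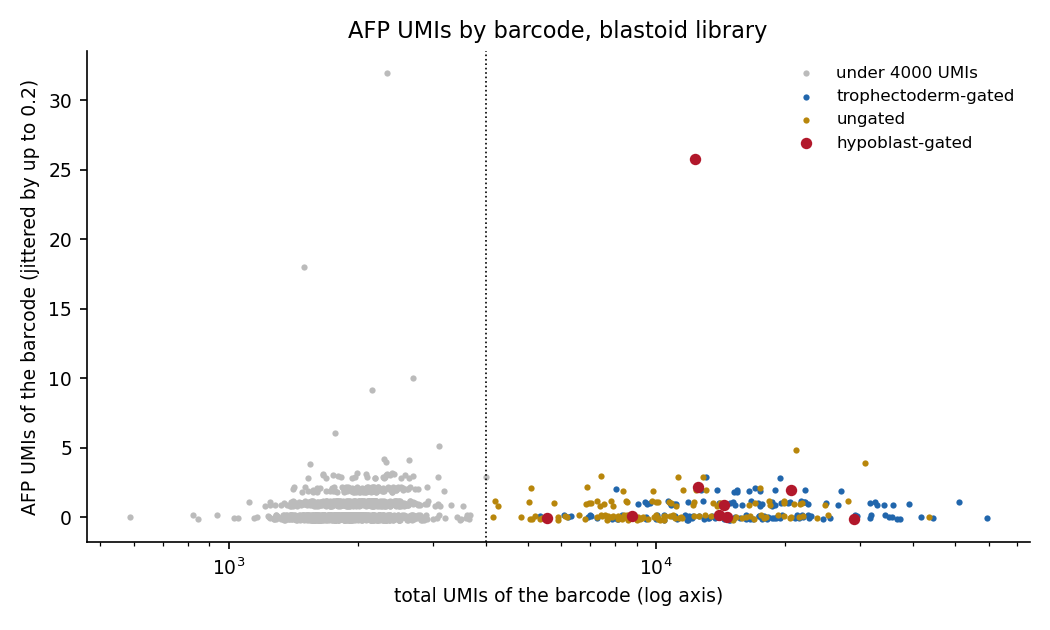
AFP UMIs of each kept blastoid barcode against its total UMIs on a log axis, coloured by gate, with the limit of 4000 UMIs dotted and a vertical jitter of up to 0.2. Most barcodes hold 0 to 3 AFP UMIs at any depth; 3 stand apart, with 32 and 18 in shallow barcodes and 26 in a hypoblast-gated nucleus.

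In the blastoid 9 deep barcodes held HNF4A, with 74 of its UMIs, 7 of AFP and 54 of APOA1. Of the 9 hypoblast-gated nuclei, those with most HNF4A UMIs, 26 and 23, held 0 and 1 AFP UMIs and no APOB. APOE was highest, at 8 UMIs, in the nucleus with 23 HNF4A UMIs. AFP was above 2 UMIs in 1 of the 9 nuclei, and 8 of 9 had an APOA1 UMI. Without the AFP-rich nucleus, hypoblast-gated nuclei held 0.625 AFP UMIs per barcode (0.203 to 1.46), a range that included the shallow value, and 5.50 APOA1 UMIs per barcode, above it with its whole interval (upper bound 7.38).

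In the blastocyst, HNF4A was far more abundant and AFP absent. HNF4A was detected in 427 deep blastocyst barcodes with 2295 UMIs. AFP, TTR and APOB were at 0 in all 427, and APOA1 had 890 UMIs there.

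APOA1 in the blastocyst differed between the gates. The epiblast gate was applied first, and its nuclei were not free of hypoblast markers: these summed to 5098 CPM there, 6459 CPM in the hypoblast gate and 1887 CPM in the trophectoderm gate. Epiblast markers summed to 780 CPM, 278 CPM and 102 CPM. APOA1 was at 222 CPM (206 to 239) in hypoblast-gated and 203 CPM (168 to 242) in epiblast-gated nuclei, against 119 CPM (105 to 134) in trophectoderm-gated and 129 CPM (104 to 158) in ungated ones. The ratio of hypoblast- to trophectoderm-gated was 1.87 (1.62 to 2.17), short of 2-fold, which 20.0% of 15206 genes reached in this direction. One trophectoderm-gated barcode of 80592 UMIs held 54 of the 259 APOA1 UMIs of its gate and 7.30% ribosomal protein UMIs. Without it the ratio was 2.28 (1.95 to 2.68), and that of epiblast- to trophectoderm-gated rose from 1.71 to 2.08 (1.65 to 2.62). Both ratios lay above 1 beyond counting error with and without that barcode, for gates whose markers overlapped.

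Per barcode, APOA1 was highest in the hypoblast- and epiblast-gated blastocyst nuclei. The values were 1.09 UMIs (0.920 to 1.27) in shallow, 0.989 (0.797 to 1.21) in ungated and 1.01 (0.881 to 1.16) in trophectoderm-gated barcodes without the one of 80592 UMIs, and 1.28 (1.13 to 1.44) with it. Hypoblast-gated nuclei held 1.99 (1.84 to 2.15) and epiblast-gated nuclei 2.50 (2.07 to 2.99). Median depth was 8381 UMIs in the hypoblast gate, 9368 in the trophectoderm gate and 12354 in the epiblast gate.

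APOA1 per barcode also differed with depth inside the blastocyst gates. In hypoblast-gated nuclei it was 1.49 (1.28 to 1.73) from 4000 to 7000 UMIs, 2.22 up to 10000, 2.09 up to 15000 and 3.25 (2.51 to 4.14) above. In trophectoderm-gated nuclei it was 0.732 (0.525 to 0.993), 0.945, 1.22 and 3.14 in the same ranges, with 1.26 (0.872 to 1.76) in the last without the barcode of 80592 UMIs. The hypoblast-gated value was the higher in each of the 4 ranges, but in the last only by 3.25 against 3.14 with all barcodes.

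Shallow blastocyst barcodes had more APOA1 as CPM, 532.5 CPM (451 to 625) against 176 CPM in deep ones, a ratio of 3.03 (2.54 to 3.59). The 54 shallow barcodes with over 5% ribosomal protein UMIs were at 1147 CPM (919 to 1415) and the other 85 at 308 CPM (237 to 393), which is under 2-fold above the deep level. With APOE at a ratio of 3.81 (1.82 to 7.26) and RBP4 through its 1 barcode, 3 of the 3 carriers with at least 10 UMIs were at least 2-fold higher, against 35.5% of 16200 genes. APOE was at 12.0 CPM (8.44 to 16.5) in hypoblast-gated and 5.95 CPM (3.17 to 10.2) in trophectoderm-gated nuclei, a ratio of 2.01 (1.05 to 4.13). That ratio rested on 37 and 13 UMIs.

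**Figure D5:**
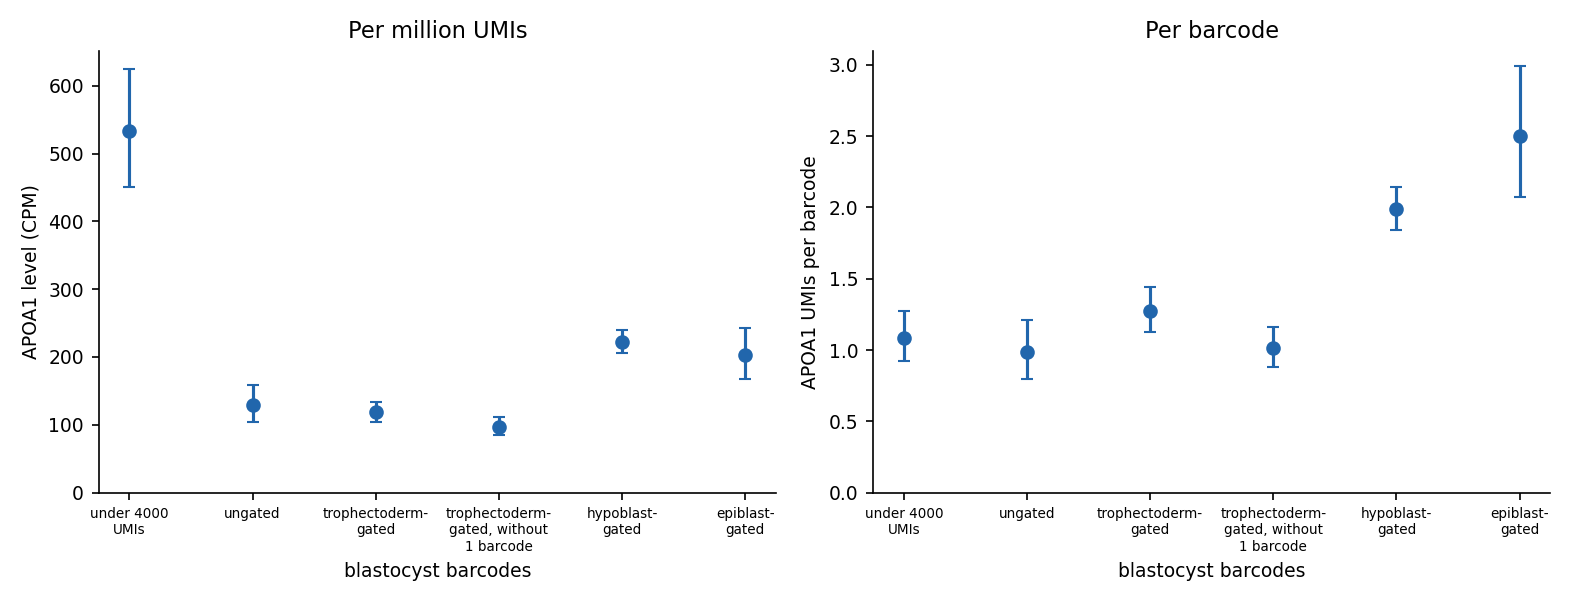
APOA1 in groups of blastocyst barcodes as CPM (left) and UMIs per barcode (right), both axes from 0, with exact 95% Poisson intervals; the fourth point leaves out the barcode of 80592 UMIs. Per barcode, the shallow and ungated groups lie at 1.09 and 0.989, the trophectoderm-gated group at 1.28 with that barcode and 1.01 without it, and the hypoblast- and epiblast-gated groups lie at 1.99 and 2.50.

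Other genes listed as plasma carriers were higher in the blastoid more often than lower. The list also holds TTPA and FABP1, which bind lipid inside cells. Of its 14 genes with at least 10 UMIs, out of 25 listed, 9 were at least 2-fold higher in the blastoid and 1 was lower. Among all genes these shares were 24.2% and 20.7%. The median log2 ratio was 2.50, against -0.08 for all genes. AHSG had 549 UMIs against 3 (ratio 168, 57.1 to 816), and TF 277 against 4 (ratio 63.5, 24.5 to 235). SERPINA1 had 275 against 0, 84.1-fold higher with the 0 set to 3. CP (ceruloplasmin, the copper carrier) went the other way, 70 UMIs against 254, and was 3.96-fold lower (3.03 to 5.23). Albumin, named after its values were seen, had 1 UMI against 0. In deep barcodes alone 5 of 11 genes were higher and 3 lower, against 21.9% and 15.2% of all genes, and the median log2 ratio was 0.44.

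Genes that act on the carriers split. Of 11 lipoprotein assembly genes 3 were higher and 5 lower in the blastoid, where 24.2% of all genes were higher and 20.7% lower. PLTP (phospholipid transfer) had 163 UMIs against 10, SORT1 203 against 49 and P4HB 2204 against 538, while LCAT, which esterifies cholesterol on high-density lipoprotein, was 3.31-fold lower (2.47 to 4.47). MTTP, which loads lipid onto APOB and is named here after its values were seen, had 7 blastoid and 88 blastocyst UMIs. The library with APOB RNA was therefore the one with less MTTP RNA. In blastocyst nuclei MTTP had 61 UMIs in the hypoblast gate and 2 in the trophectoderm gate.

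Of 11 receptor genes 3 were higher and 1 lower, so the share higher was near the 24.2% of all genes. STRA6, the RBP4 receptor, had 110 UMIs against 5 (ratio 20.2, 8.39 to 63.4), and LRP1, which binds APOE, was 6.17-fold higher (4.43 to 8.79). SCARB1, the receptor for high-density lipoprotein, was 3.09-fold lower (2.69 to 3.56). In the blastocyst it had 558 UMIs in hypoblast-gated and 12 in trophectoderm-gated nuclei.

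Of 10 genes of retinoid handling inside cells 6 were higher and 2 lower, against 24.2% and 20.7% of all genes. CRABP1, which binds retinoic acid, had 379 UMIs against 1 (ratio 348, 62.0 to 13764), and CRABP2 98 against 2. DHRS3 was 2.37-fold lower (1.69 to 3.34).

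Of 13 regulators of these genes 3 were higher, a share near the 24.2% of all genes, and 6 lower, against 20.7%. HNF4A had 77 UMIs against 2364, 33.5-fold lower (26.7 to 42.6). GATA6 was 15.3-fold lower (13.8 to 17.1) and NR5A2 11.1-fold (7.98 to 15.8). ZHX2, known from mouse liver as a repressor of AFP, was 7.60-fold higher (4.97 to 12.1), with 199 UMIs against 24. The library with the higher carrier levels thus had the lower levels of HNF4A, GATA6 and NR5A2.

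Genes that went with AFP were sought in shallow blastoid barcodes, as 560 with an AFP UMI against 1068 without. Median depths were 2040.5 and 1862.5 UMIs. Of 4948 genes with at least 100 UMIs, 4 were at least 2-fold lower and 2 at least 2-fold higher (0.0404%), PCDHAC2 at 2.15 (1.51 to 3.08) and ARHGAP28 at 2.13 (1.44 to 3.18). The lower bound was above 1 for 3.70% of genes and the upper bound below 1 for 173 genes. The 5 other carriers with at least 100 UMIs, all but APOB, had ratios from 0.776 to 1.03. By lower bound, ARID4A, GFER, PTBP2, LMO7, KIF2C, ABCG2, ANKIB1 and TFDP2 followed. None of these 10 is on the list of plasma carriers. SERPINA1, on that list, was at 1.34 (1.01 to 1.78) and AHSG at 1.12 (0.910 to 1.36).

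Over 9 groups of barcodes in both libraries, the genes whose level was most like that of AFP were DEFB1, SERPINA1, TUBB2B, FZD2 and AHSG, with Pearson's r of log2(CPM + 10) from 0.996 to 0.999 among 10242 genes. DEFB1 had 951 blastoid and 0 blastocyst UMIs, with 257 CPM in shallow, ribosome-rich barcodes and 27.6 CPM in trophectoderm-gated nuclei. Among carriers the r was 0.985 for TTR, 0.972 for APOB, 0.934 for APOE, 0.918 for RBP4, 0.842 for APOA2 and 0.446 for APOA1. The groups share 2 libraries and differ in depth, so these values describe a shared contrast between them. APOA1 was the carrier least like AFP by this measure.

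Markers of other cells were measured beside the carriers. Between libraries 24.2% of all genes were at least 2-fold higher in the blastoid and 20.7% lower, the shares beside which the marker counts stand. Of 11 trophectoderm markers 7 were higher and 1 lower. Among deep barcodes 5 were higher and 1 lower, against 21.9% and 15.2% of all genes. Between trophectoderm-gated nuclei 3 were higher, against 22.0% of all genes, and 1 was lower. Over all kept barcodes the 11 markers summed to 5915 CPM against 1548 CPM. The keratins KRT18 and KRT8 gave 3287 CPM and 1319 CPM of this in the blastoid. Between shallow and deep blastoid barcodes 4 of the 11 were higher and 2 lower in shallow ones, against 18.4% and 44.4% of all genes. KRT18 was at 6254 CPM in shallow and 1092 CPM in deep barcodes, and the gate gene GATA2 at 141 CPM and 209 CPM. Of the 10 hypoblast markers none was higher and 7 were lower in the blastoid. Of 8 fibroblast markers 3 were higher and 2 lower, with a median log2 ratio of 0.63. Their summed level was 67.9 CPM against 128.5 CPM, of which FBN1 gave 25.5 CPM and 107 CPM. In shallow against deep blastoid barcodes 4 of 7 fibroblast markers were higher and 1 lower, beside the same 18.4% and 44.4%. Of 2 blood markers 1 was higher, and the blood list summed to 4.81 CPM against 7.72 CPM, with HBE1, HBM and TAL1 at 0 in both libraries. Of 7 epiblast markers 1 was higher and 4 lower, and all 4 neural genes were higher, 2564 CPM against 311 CPM. In shallow against deep blastoid barcodes all 4 neural genes were lower, 305 CPM against 4235 CPM. Of the 10 hypoblast markers 1 was higher and 5 lower there, and of 4 epiblast markers 2 were higher and 2 lower. The part of these markers in the carrier levels was not tested.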

How the data were processed

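The files held raw UMI counts per gene and barcode, as the authors deposited them for 1 blastoid and 1 blastocyst library of single nuclei. They were made with Cell Ranger, version 7.2.0 per the file headers and 7.1.0 per the submitters' processing notes, which also list Seurat 4.3.0. The genome build, the annotation and whether introns were counted are not given in the sources used here. The members and gene lists were chosen with earlier results of these data known.

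Barcodes with under 500 genes or at least 10% mitochondrial UMIs were left out, as were the highest Scrublet doublet scores, 0.8% per 1000 barcodes (scanpy 1.11.5). This removed 43 blastoid barcodes, 30 of them as doublets, and 117 blastocyst barcodes, 6 of them as doublets. UMIs were summed over the barcodes of a group and divided by their total to give CPM. Intervals were exact Poisson for levels, exact Clopper-Pearson for shares and exact conditional for ratios (scipy 1.17.1, numpy 2.4.6, pandas 2.3.3), and the calculation was tested on simulated data. A gate needed at least 3 UMIs of its genes, and the trophectoderm and hypoblast gates more than 2 times the UMIs of the other. The epiblast gate was applied first.

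The text names all 7 members. From each list it names at most the 3 highest and 3 lowest ratios among genes with at least 100 UMIs, other genes where said. One gene that this rule names is not reported here. It also names the 10 genes with the highest lower bound in AFP-bearing barcodes, and the 5 most correlated with AFP. Of the listed genes, 9 symbols were not matched. Alternatives covered the barcode filters, depth limit, total, scaling, floor, gates, thinning and gene minimum. No sequences were used here.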

Additional observations from a re-analysis of the deposited data

How the results depend on the processing

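Of the values recomputed under an alternative, 169 stayed close to the reported one, 31 moved and none changed direction. Of those that moved, 11, 4 and 5 were log2 ratios of carriers between libraries, between blastoid and between blastocyst depth classes. Between libraries, barcodes from 4000 UMIs alone lowered the AFP ratio, its 0 set to 3, from 305-fold to 90.2-fold. Log2 ratios fell for TTR from 6.05 to 4.42, APOA2 from 5.84 to 3.67, APOE from 4.39 to 3.01 and APOA1 from 1.75 to 0.07. Adding 0.5 in place of the floor raised AFP from 8.25 to 10.84, TTR to 8.63 and APOB to 7.95. APOA1 lay between 1.56 and 1.99 under the other settings that moved it. Between blastoid depth classes, leaving ribosomal and mitochondrial genes out of the total gave 2.99 for APOA1, 2.69 for APOE and 3.07 for RBP4, and APOB was 2.25 without 1 nucleus. Between blastocyst depth classes APOA1 ran from 1.00 to 1.92, and RBP4 was 4.25 at the higher depth limit. The share of shallow blastoid barcodes with an AFP UMI, 20.9% after thinning to 1000 UMIs, was 10.3% at 500 and 40.6% at 2000, the last over 687 barcodes with 941 shallower ones left out. The variance over mean of AFP was 3.14 at 2000 UMIs, over those 687, and 1.00 without the 10 barcodes with most AFP. The number of genes at least 2-fold higher with AFP was 12 when at least 2 AFP UMIs were asked for and 11 among genes with at least 50 UMIs, against 2. Plasma carriers higher in the blastoid numbered 5 of 7 with at least 100 UMIs and 5 of 11 in barcodes from 4000 UMIs, against 9 of 14. Receptors higher numbered 5 of 11 after scaling by the median gene, whose log2 ratio of -0.25 was subtracted from every ratio, against 3 of 11. Regulators higher numbered 1 of 8 with at least 100 UMIs, against 3 of 13. The scaling raised the ratio of every gene alike. Shares of all genes at these 2 settings are not given here, so the counts are not read as results about the lists. The cause of these differences was not tested. Leaving out the APOB-rich nucleus, the APOE-rich nucleus and the APOA1-rich barcode were alternatives chosen after seeing the data. No paired analysis was possible because each group had 1 library. Genes at 0 in the blastocyst are bounded by depth, and their levels are given as limits.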
